A study of Homo sapiens with 16 samples.

Results

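The nuclear RNA of SNU-449 cells was compared 48 h after transfection with siPANAD, a mixture of the siRNAs siPANAD-1 and siPANAD-2, and after transfection with NC, the control siRNA. The libraries were chosen by their labels, as the nuclear ones of this line: 2 with siPANAD and 2 with NC, or 4 of the 16 libraries of the study. The other 12 came from the cytoplasm of the same line and from the nucleus and cytoplasm of HepG2, a second liver cancer line, under the same transfections. SNU-449 is a line grown in RPMI medium and labelled as hepatocellular carcinoma. Both groups had been transfected, and the series' design text calls the libraries of a group biological duplicates. The model is limited to 1 time point, and every effect is that of a mixture of 2 siRNAs, so that the share of each cannot be told apart.

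PANAD is the product of C7orf25. The title of the series ties it to NXF1, to the movement of CDK6 mRNA out of the nucleus and to entry into S phase. As background, a messenger RNA is capped, spliced and cut in the nucleus and is then packed with export proteins such as the TREX complex. NXF1, working with NXT1, carries most mRNAs through the nuclear pore, while RNAs that are poorly spliced or marked for retention stay and are in part degraded by the nuclear exosome. A nuclear library therefore holds young transcripts, retained RNAs and mRNAs on the way out, and its level of a gene depends on synthesis, nuclear decay and export at once. CDK6 is a kinase that, with D-type cyclins, phosphorylates the RB protein and so releases E2F factors at the start of S phase.

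The 4 nuclear libraries held 17083508 to 17695986 counts each, and a count of 0 in one of them allows up to 3 counts, which is 0.170 to 0.176 CPM (counts scaled to library size). Before any further scaling, the nuclear RNA MALAT1 was at 634 and 593 CPM in siPANAD nuclei and at 409 and 409 CPM in NC nuclei, against 2.21 to 3.43 CPM in the cytoplasmic libraries of the line. Of the fixed hepatocyte markers, ALB, APOA1, APOA2, APOB, TTR and HNF4A were at or near 0 in all 4 libraries, whereas the fibrinogen gene FGB was at 62.8 and 61.0 CPM in siPANAD nuclei and at 207 and 171 CPM in NC nuclei, and SERPINA1, the plasma protease inhibitor alpha-1-antitrypsin, at 3.54 and 3.64 CPM against 1.68 and 1.62 CPM. Of 12 mesenchymal markers VIM was the highest, at 1094 and 1001 CPM in siPANAD nuclei and 1331 and 1244 CPM in NC nuclei. SNAI2 was near 0, and LOX was at 3.20 and 3.30 CPM against 6.15 and 5.15 CPM. Of the epithelial markers EPCAM and KRT19 were near 0, and CDH1 was at 1.24 and 1.40 CPM in siPANAD nuclei and 0.344 and 0.255 CPM in NC nuclei. The keratins KRT8 and KRT18 were at 164 to 207 CPM over the 4 libraries. The junction gene CLDN1 was at 124 and 128 CPM in siPANAD nuclei and 245 and 218 CPM in NC nuclei. Of 8 immune and blood markers, 7 were at or near 0 and CD14 was at 25.6 and 30.3 CPM against 16.6 and 15.5 CPM. In edgeR, at an adjusted p under 0.05, 3 of 7 nuclear RNA markers were higher with siPANAD and 2 lower. Of 11 tested mesenchymal markers 0 were higher and 7 lower. The shares of all genes tested were 22.1% and 23.9%. The nuclear RNA marker MEG3 was at 43.4 and 49.1 CPM against 59.3 and 67.2 CPM. Of 7 cytosolic mRNA markers 0 were higher and 3 lower, with ACTB at 3331 and 3128 CPM against 6210 and 6080 CPM. All CPM values from the marker genes FGB onward are scaled with TMM, a method that lines up the bulk of genes across libraries. A shift common to most genes would be hidden by it.

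The targeted gene could not check the labels. C7orf25 (chr7:42908726-42912305, minus strand, GRCh38) had 3 and 4 counts in the siPANAD nuclei and 5 and 7 counts in the NC nuclei, a pooled ratio of 0.602 with a 95% interval of 0.201 to 1.66 for counting error. It was too low to be tested, and 61.1% of its exonic bases are shared on the same strand with an overlapping gene. Its neighbour PSMA2, a proteasome subunit, was at 2.69 and 2.24 CPM in siPANAD nuclei and 2.92 and 3.91 CPM in NC nuclei (log2 fold change -0.47, SE 0.23, adjusted p = 0.10). The next gene, MRPL32, a mitochondrial ribosomal protein, was at 56.1 and 55.4 CPM against 69.6 and 65.0 CPM (-0.27, SE 0.10, adjusted p = 0.018). The call of MRPL32 was lost without NC replicate 1 (-0.23, adjusted p = 0.11), siPANAD replicate 1 (-0.29, adjusted p = 0.068) or siPANAD replicate 2 (-0.27, adjusted p = 0.0998).

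Nuclear RNA changed broadly. Of 17895 genes tested in edgeR, 3951 were higher with siPANAD at an adjusted p under 0.05 and 4281 were lower, which is 22.1% and 23.9% of the genes, and the median log2 fold change over all genes was -0.01. Most changes were small: 1311 of the higher genes and 774 of the lower genes differed at least 2-fold, and 189 and 89 at least 4-fold. The siPANAD and NC libraries did not overlap for 13067 genes, or 73% of those tested. These shares are the background for every count below. With 2 libraries per group, the p-values measure the spread between these libraries, and the spread was estimated over all 8 SNU-449 libraries.

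**Figure D1:**
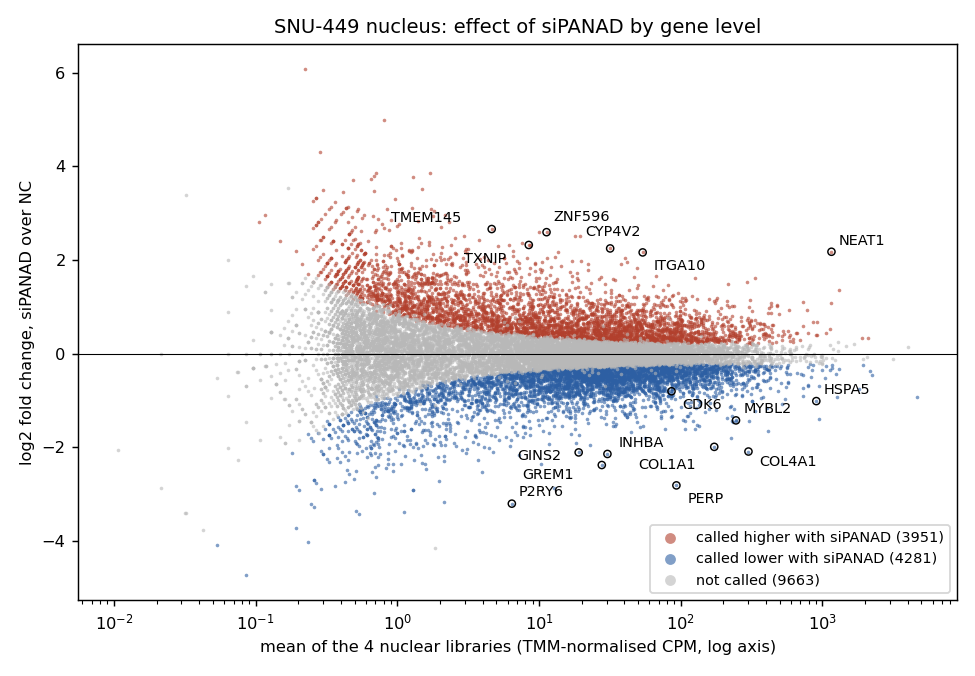
Log2 fold change of siPANAD over NC (vertical axis) against the mean TMM-normalised CPM of the 4 nuclear libraries (horizontal log axis), 1 point per gene of the 17895 tested. Red points are the 3951 genes called higher and blue points the 4281 called lower; NEAT1 stands out at high level and PERP, COL4A1 and GREM1 among the largest falls.

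NEAT1, the long non-coding RNA that builds nuclear paraspeckles (chr11:65422774-65445540, plus strand), was at 1843 and 1951 CPM in siPANAD nuclei and 416 and 423 CPM in NC nuclei, 4.52-fold higher (log2 fold change 2.18, SE 0.10, adjusted p = 4.8e-19). Both siPANAD libraries lay far above both NC libraries. The other abundant nuclear RNA, MALAT1, was at 462 and 431 CPM against 311 and 307 CPM (0.53, SE 0.09, adjusted p = 1.6e-05).

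The 15 largest rises and 15 largest falls were picked among called genes with at least 5 CPM in the higher group and no overlap between groups. The largest rise was that of TMEM145, a predicted membrane protein, at 7.39 and 8.64 CPM in siPANAD nuclei and 1.16 and 1.36 CPM in NC nuclei (2.66, SE 0.22). TMEM187, another membrane protein, was at 33.5 and 32.5 CPM against 6.23 and 5.27 CPM (2.52, SE 0.13, adjusted p = 6.9e-17). IL4I1, a secreted amino acid oxidase, was at 16.9 and 17.2 CPM against 3.35 and 2.30 CPM (2.59, SE 0.18). In each of these genes the 2 siPANAD libraries were close to each other and several times above NC. Separation of the groups was a condition of being picked.

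PIK3IP1, an inhibitor of phosphoinositide 3-kinase, was at 14.2 and 14.7 CPM in siPANAD nuclei and 2.97 and 2.81 CPM in NC nuclei (2.32, SE 0.16, adjusted p = 6.7e-14). TXNIP, which binds thioredoxin and limits glucose uptake, was at 15.4 and 12.9 CPM against 2.54 and 3.10 CPM (2.32, SE 0.18, adjusted p = 5.8e-13). CYP4V2, a fatty acid hydroxylase, was at 50.1 and 54.9 CPM against 11 and 11.1 CPM (2.25, SE 0.12). C1QTNF6, a secreted protein of the C1q and TNF family, was at 28.6 and 32.1 CPM against 5.63 and 5.06 CPM (2.51, SE 0.14). The remaining genes of the 15 largest rises were ZNF596, RDM1, PSMG3-AS1, ANKRD34A, ID2-AS1, AQP5, CFAP91 and LINC00173, with log2 fold changes of 2.19 to 2.59. In CFAP91, 33% of the exonic bases overlap another gene on the same strand.

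PERP, a desmosomal membrane protein (chr6:138088505-138107511, minus strand), was at 21.8 and 24.7 CPM in siPANAD nuclei and 183 and 144 CPM in NC nuclei, 7.03-fold lower (-2.81, SE 0.14, adjusted p = 1.2e-12). P2RY6, a receptor for extracellular UDP, was at 1.49 and 1.02 CPM against 12.1 and 11.1 CPM (-3.20, SE 0.23, adjusted p = 1.6e-12). NTN4, a basement membrane netrin named for its difference from HepG2, was at 8.84 and 9.95 CPM against 35.7 and 36.6 CPM (-1.94, SE 0.12). Each gene was far lower in both siPANAD libraries than in either NC library. For PERP and P2RY6 separation of the groups was a condition of being picked. EFNA2, an ephrin ligand, PGBD5, a domesticated transposase, ARSI, a sulfatase, CACNA1G, a calcium channel, and GINS2 also stood among the 15 largest falls, with log2 fold changes of -2.53 to -2.11. LY6K fell by 2.86 on the log2 scale, and 71% of its exonic bases overlap an antisense gene, so its reads may not be its own.

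**Figure D2:**
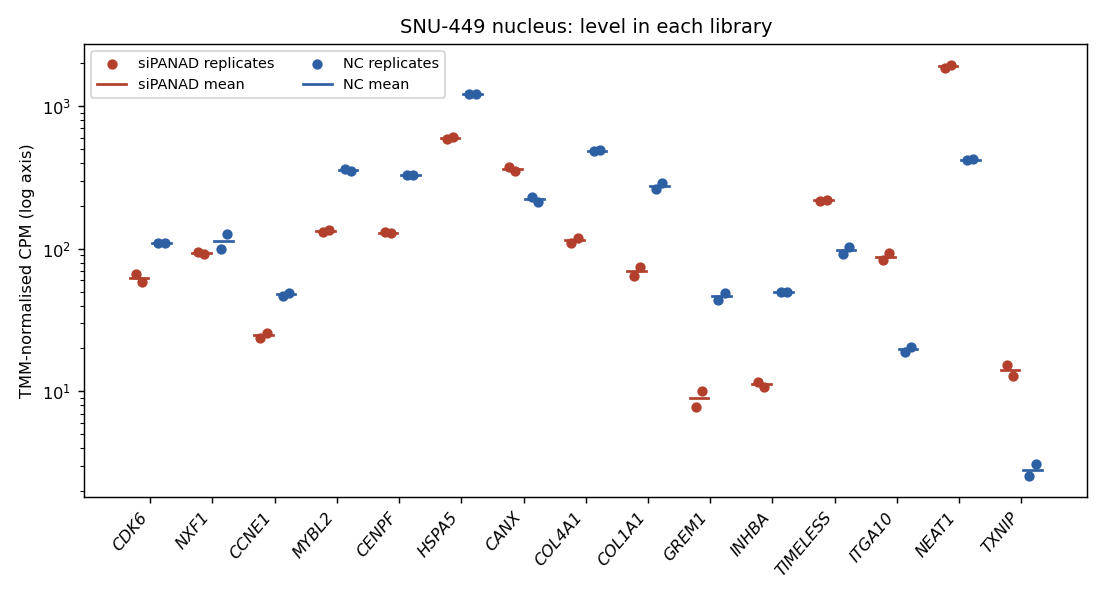
TMM-normalised CPM (log axis) of selected genes in each nuclear library, with siPANAD left of NC, 1 point per library and a bar at the mean. The 2 libraries of a group lie close together, and the groups do not overlap for genes such as NEAT1 and CDK6.

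Classes of RNA differed in their share of calls. Of 1221 antisense genes 28.1% were higher and 7.37% lower, and of 960 intergenic long non-coding genes 26.7% were higher and 9.69% lower. Protein-coding genes had 21.6% higher and 28.8% lower among 13352 tested. Of 456 genes named as ZNF zinc fingers, mostly transcription repressors, 123 were higher and 49 lower, and of 338 protein-coding genes with 1 exon 48 were higher and 128 lower. Processed pseudogenes, which have no introns, had 8.85% higher and 11.5% lower. These classes were not tested against each other.

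Protein-coding genes were also grouped by how nuclear their RNA is in other cells, using the nucleus to cytoplasm ratio in HepG2 transfected with NC, which shares no library with the comparison. In the quintile of genes with the most nuclear RNA, 35% were higher with siPANAD and 15.3% lower. In the quintile with the most cytoplasmic RNA, 11.2% were higher and 43.1% lower, and the groups between were in order. By gene span, 14.9% of the longest quintile were higher and 34.3% lower, against 24.3% and 26.8% of the shortest quintile. The amount of cytoplasmic RNA left in a nuclear preparation cannot be measured from these counts, since mitochondrial genes had 0 counts in all libraries, and its part in the pattern was not tested. With this trend removed by a smooth curve, 3297 genes were higher and 3347 lower of the 15017 genes tested in both lines, against 3427 and 3678 of the same genes without removal. The genes called were in part others: calls shared in direction with the fit reported above numbered 5698 with removal and 7088 without it. Members of the gene lists described below numbered 168 higher and 306 lower with removal, against 141 and 363 without it.

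**Figure D3:**
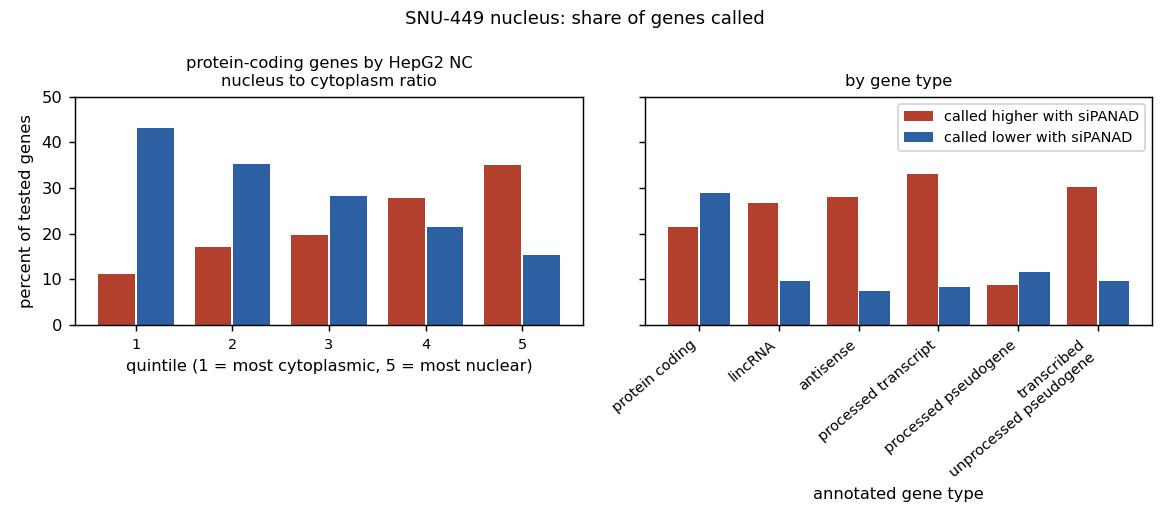
Share of tested genes called higher (red) and lower (blue) with siPANAD in the SNU-449 nucleus, in percent, by gene class and by quintiles of the HepG2 NC nucleus to cytoplasm ratio of protein-coding genes. The share higher grows to 35% and the share lower shrinks to 15.3% toward the most nuclear quintile.

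CDK6 (chr7:92604921-92836594, minus strand) was at 66.7 and 58.8 CPM in siPANAD nuclei and 109 and 110 CPM in NC nuclei (-0.80, SE 0.09, adjusted p = 9.6e-09). Its D-type partner CCND1 was at 63.1 and 61.1 CPM against 65.0 and 66.2 CPM (-0.08, adjusted p = 0.51), and the related kinase CDK4 was at 62.7 and 54.7 CPM against 52.3 and 58.0 CPM (0.09, adjusted p = 0.47). The siPANAD and NC libraries were apart for CDK6 and overlapped for CDK4. In bulk RNA of a culture, fewer cells that express a gene and less of its RNA per cell cannot be told apart, here and for every gene below.

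CCNE1, the cyclin of the G1/S switch, was at 23.9 and 25.7 CPM in siPANAD nuclei and 46.9 and 48.9 CPM in NC nuclei (-0.95, SE 0.10, adjusted p = 2.6e-09). CCNA2, the S phase cyclin, was at 22.7 and 21.7 CPM against 40.4 and 40.3 CPM (-0.86, SE 0.11). Both cyclins were lower in each siPANAD library than in each NC library, but they were picked among the largest called falls of their list. Of 12 tested cyclins and kinases of G1, 5 fell and 0 rose, with a median of -0.14, and 3 fell without siPANAD replicate 2 and 1 rose without NC replicate 1. E2F1, an activator of S phase genes, was at 135 and 126 CPM against 220 and 193 CPM (-0.66, SE 0.09), and RB1 itself was at 12.9 and 11.9 CPM against 18.1 and 21.4 CPM (-0.68, SE 0.14). RBL2, which represses the same genes in resting cells, went the other way, at 47.2 and 49.97 CPM in siPANAD nuclei and 25.5 and 29.6 CPM in NC nuclei (0.82, SE 0.12, adjusted p = 5.3e-07). Of the 13 RB and E2F genes tested, 7 fell and 2 rose (median -0.43).

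CDK inhibitors were not higher as a list: 4 of 6 tested fell and 0 rose, and without siPANAD replicate 1 the counts were 2 lower and 1 higher. CDKN3, a phosphatase of CDKs, was at 17.2 and 15 CPM in siPANAD nuclei and 32.5 and 27.5 CPM in NC nuclei (-0.90, SE 0.12), and CDKN2C at 23.3 and 17.9 CPM against 32.2 and 32.4 CPM (-0.65, SE 0.11). CDKN1A, the p21 inhibitor, was at 36.3 and 59.4 CPM against 35.4 and 35.9 CPM (0.43, SE 0.19, adjusted p = 0.10), with 1 siPANAD library high and the other near NC.

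Of 50 mitosis genes tested, 40 fell and 0 rose, beside 23.9% and 22.1% of all genes, and the median of the list was -0.48. Summed over the list, nuclear levels were 3498 and 3377 CPM with siPANAD and 5274 and 5203 CPM with NC. MYBL2, a factor that turns on late cell cycle genes, was at 131 and 135 CPM in siPANAD nuclei and 363 and 353 CPM in NC nuclei (-1.43, SE 0.09, adjusted p = 1.0e-14). CENPF, a kinetochore protein, was at 131 and 128 CPM against 327 and 328 CPM (-1.33, SE 0.10, adjusted p = 2.4e-13), and SPC25, a part of the NDC80 complex, at 8.54 and 6.23 CPM against 19.2 and 18.2 CPM (-1.34, SE 0.14). For all 3 the libraries of the groups were well apart, but they were picked as the 3 largest called falls of the list.

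In DNA replication, 25 of 51 genes fell and 8 rose (median -0.23), and without siPANAD replicate 2 the counts were 16 lower and 5 higher. GINS2, a part of the replicative helicase, was at 7.17 and 7.16 CPM in siPANAD nuclei and 32.2 and 29.6 CPM in NC nuclei (-2.11, SE 0.12, adjusted p = 4.4e-16), one of the deepest falls in the data. TK1, which salvages thymidine, was at 199 and 180 CPM against 362 and 340 CPM (-0.89, SE 0.09). TIMELESS, which protects replication forks (chr12:56416373-56449403, minus strand), instead was at 218 and 221 CPM with siPANAD and 91.8 and 103 CPM with NC (1.17, SE 0.10, adjusted p = 5.4e-12). ORC2, of the origin recognition complex, was at 84.8 and 85.6 CPM against 45.9 and 39.98 CPM (0.99, SE 0.10). Replication genes thus moved in both directions within the same libraries.

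Replication-dependent histone genes, whose mRNAs carry a stem-loop in place of a poly(A) tail, were low, with summed levels of 57.7 and 64.4 CPM in siPANAD nuclei and 37.7 and 36.1 CPM in NC nuclei. Of 44 tested, 11 rose, near the 22.1% of all genes, and 0 fell, beside 23.9% of all genes. The other 33 were not called, and the median was 0.58. The highest of those named, H2BC21, was at 6.92 and 11.4 CPM against 2.15 and 3.87 CPM (1.60, SE 0.25, adjusted p = 4.0e-05). Selection for poly(A) or depletion of ribosomal RNA is not stated in the labels.

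The start regions of mitosis genes are shown because this list fell so widely. The CHR element, with the letters TTTGAA, is the textbook site at which DREAM and MYBL2 complexes act in G2/M genes. In RefSeq windows of 250 bases before to 50 after the start (GRCh38.p14, both strands), it was present in 30 of the 43 mitosis genes with a window (69.8%), in 9.91% of 11898 windows of tested genes and in 15.4% of all 27303 windows. The CCAAT box, letters CCAAT, was in 32 of the 43 (74.4%) and in 36.5% of tested genes. Within the list the CHR letters were in 20 of 33 genes that fell (60.6%) and in 10 of 10 that were not called. Below are the 250 bases before the start of a gene that fell, CENPA (chr2:26785806-26786055, plus strand), of PLK1 (chr16:23678639-23678888, plus strand) and of HMMR, which was not called (chr5:163460382-163460631, plus strand), with CHR and CCAAT letters of either strand in capitals.
CENPA: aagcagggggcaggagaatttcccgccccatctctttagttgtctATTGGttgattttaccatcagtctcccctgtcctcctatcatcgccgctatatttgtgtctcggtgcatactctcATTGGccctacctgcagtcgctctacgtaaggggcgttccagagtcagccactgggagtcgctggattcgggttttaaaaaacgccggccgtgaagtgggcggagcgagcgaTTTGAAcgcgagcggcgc
PLK1: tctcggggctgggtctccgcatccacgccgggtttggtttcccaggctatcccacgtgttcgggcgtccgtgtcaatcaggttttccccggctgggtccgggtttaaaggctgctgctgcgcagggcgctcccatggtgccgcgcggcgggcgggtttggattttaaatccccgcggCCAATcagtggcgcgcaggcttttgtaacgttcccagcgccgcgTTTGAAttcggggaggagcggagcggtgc
HMMR: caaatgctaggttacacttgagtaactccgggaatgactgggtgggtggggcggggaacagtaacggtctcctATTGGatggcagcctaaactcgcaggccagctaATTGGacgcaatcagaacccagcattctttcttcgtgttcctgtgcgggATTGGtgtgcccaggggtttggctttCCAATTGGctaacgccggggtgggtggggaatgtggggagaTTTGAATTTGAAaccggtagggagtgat

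CENPA, the centromeric histone, has its CHR letters 18 bases before the start and was at 11 and 11.1 CPM in siPANAD nuclei and 22.7 and 22 CPM in NC nuclei (-1.02, SE 0.12, adjusted p = 7.0e-09). PLK1, the mitotic kinase, has them 29 bases before the start and was at 139 and 125 CPM against 171 and 187 CPM (-0.44, SE 0.09, adjusted p = 1.6e-04). HMMR, a spindle protein, has them 28 and 22 bases before the start and was at 19.6 and 21.7 CPM against 25.7 and 20.6 CPM (-0.16, SE 0.20, adjusted p = 0.54), with overlapping groups. The differences between the 3 genes were not tested. These 3 genes were chosen after their values were seen.

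NXF1, the main export receptor of mRNA, was at 95.6 and 92.1 CPM in siPANAD nuclei and 99.7 and 128 CPM in NC nuclei (-0.28, SE 0.10, adjusted p = 0.023), a call that was lost in DESeq2 and without NC replicate 2 (-0.10, adjusted p = 0.51), siPANAD replicate 1 (-0.31, adjusted p = 0.064) or siPANAD replicate 2 (-0.25, adjusted p = 0.14). Of 43 mRNA export genes, 20 fell and 4 rose (median -0.28), and 12 fell without siPANAD replicate 2. RAN, the GTPase of nuclear transport, was at 238 and 237 CPM against 407 and 383 CPM (-0.73, SE 0.09, adjusted p = 1.7e-08). THOC7, of the THO complex, was at 8.07 and 8.0 CPM against 16.3 and 14.8 CPM (-0.95, SE 0.14). DDX39B, the helicase of TREX, was at 361 and 389 CPM in siPANAD nuclei and 200 and 241 CPM in NC nuclei (0.77, SE 0.10, adjusted p = 3.7e-07), and 31% of its exonic bases lie in another gene of the same strand.

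Nuclear pore genes had 12 of 33 lower and 3 higher (median -0.10), and 5 lower without siPANAD replicate 2. POM121, a membrane anchor of the pore, was at 99.1 and 105 CPM in siPANAD nuclei and 69.7 and 80.8 CPM in NC nuclei (0.44, SE 0.10), and NUP93, of the inner ring, at 77.2 and 71.8 CPM against 108 and 96.1 CPM (-0.45, SE 0.09). Of 21 genes of the nuclear exosome and its adaptors 11 fell and 1 rose, with 6 lower without siPANAD replicate 2 and 0 higher without NC replicate 2. EXOSC3, a cap subunit, was at 7.43 and 7.37 CPM against 15 and 13.3 CPM (-0.93, SE 0.14), and EXOSC10, the nuclear exonuclease, at 48.2 and 51.5 CPM against 71.0 and 78.1 CPM (-0.58, SE 0.10).

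Of 67 spliceosome, SR and hnRNP genes 18 fell and 9 rose, with a median of -0.01, the same as all genes; 10 fell without NC replicate 1 and 11 without siPANAD replicate 2. SRSF3, an SR protein that also adapts mRNAs to NXF1, was at 136 and 146 CPM in siPANAD nuclei and 257 and 238 CPM in NC nuclei (-0.82, SE 0.09, adjusted p = 4.4e-09). SRRM2, a scaffold of nuclear speckles, was at 407 and 424 CPM against 203 and 242 CPM (0.90, SE 0.10, adjusted p = 1.6e-09). Among 20 nuclear long non-coding RNAs 7 rose and 8 fell, and 4 rose without siPANAD replicate 1 or without siPANAD replicate 2. MIR100HG, a microRNA host gene, was at 2.60 and 2.75 CPM with siPANAD and 7.09 and 7.27 CPM with NC (-1.42, SE 0.19).

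**Figure D4:**
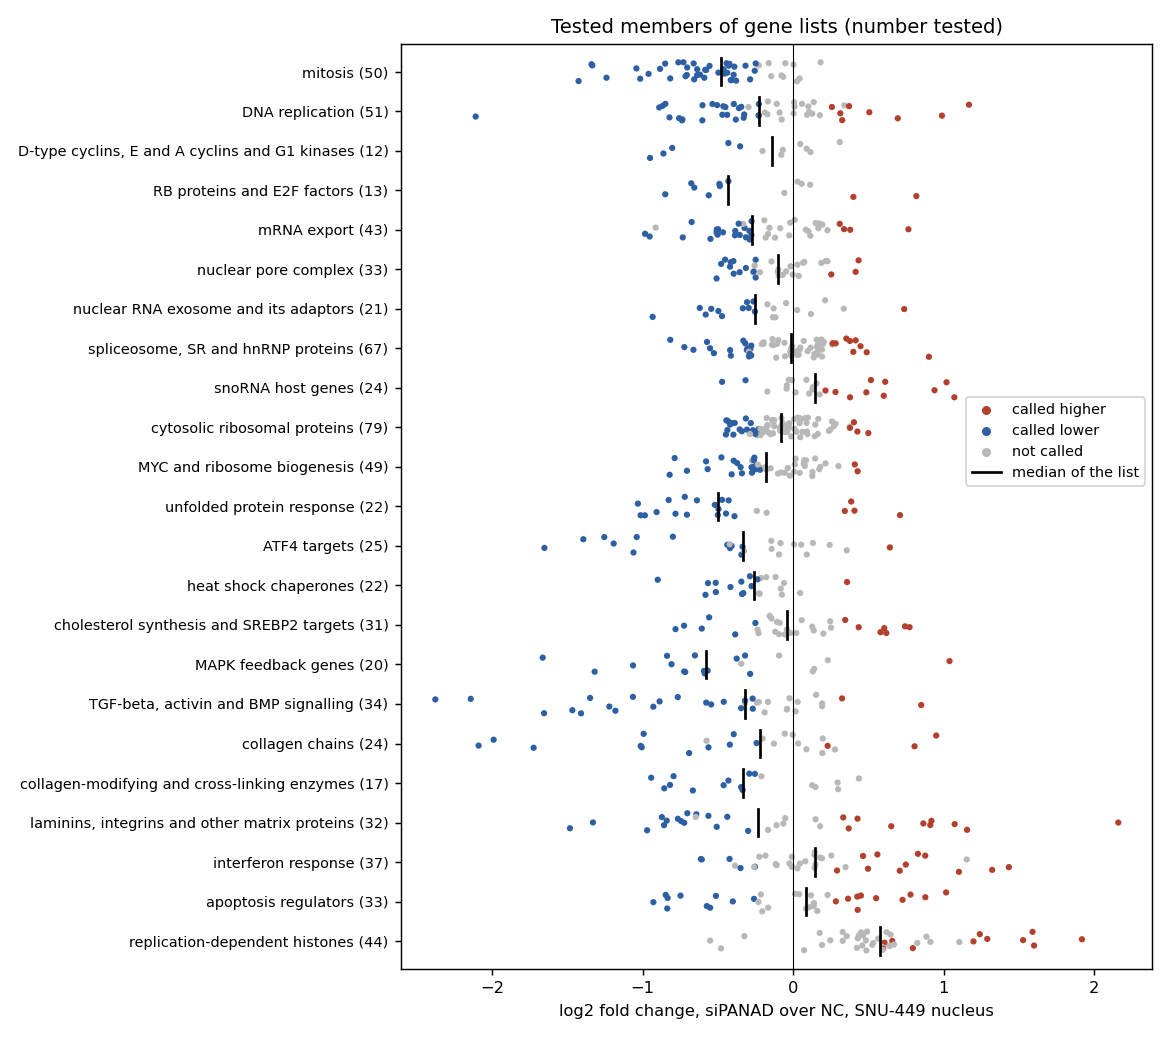
Log2 fold change of siPANAD over NC in the SNU-449 nucleus for the tested members of 23 gene lists, 1 point per gene, red if called higher, blue if called lower and grey if not called, with a black bar at the median of the list. Mitosis, unfolded protein response and MAPK feedback genes lie mostly left of 0, and histone genes mostly right of it.

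Genes of the unfolded protein response, which endoplasmic reticulum stress turns on through ATF6, XBP1 and PERK, were lower: 16 of 22 fell and 4 rose, with a median of -0.50, and 2 rose without NC replicate 1. HSPA5, the chaperone BiP (chr9:125234853-125241330, minus strand), was at 590 and 610 CPM in siPANAD nuclei and 1218 and 1205 CPM in NC nuclei (-1.01, SE 0.09, adjusted p = 3.6e-11). HSP90B1, the chaperone GRP94, was at 519 and 492 CPM against 1028 and 866 CPM (-0.91, SE 0.09), and CALR, calreticulin, at 705 and 670 CPM against 1057 and 881 CPM (-0.50, SE 0.10). DNAJB9, a co-chaperone of BiP, was at 8.24 and 8.89 CPM against 19.3 and 15.7 CPM (-1.03, SE 0.14). CANX, the membrane-bound partner of calreticulin, was higher instead, at 377 and 350 CPM in siPANAD nuclei and 231 and 213 CPM in NC nuclei (0.71, SE 0.09, adjusted p = 3.4e-08).

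The same windows were searched for the endoplasmic reticulum stress element (ERSE), which reads CCAAT, then 9 bases of any kind, then CCACG, and so contains a CCAAT box. It was found in 6 of the 21 unfolded protein response genes with a window (28.6%), namely HSPA5, HSP90B1, CALR, CANX, CRELD2 and XBP1, and in 14 of 11898 windows of tested genes (0.118%). The 250 bases before the start are given for HSPA5 (chr9:125241344-125241593, minus strand), HSP90B1 (chr12:103930160-103930409, plus strand) and CALR (chr19:12938359-12938608, plus strand), which fell, and for CANX (chr5:179698679-179698928, plus strand), which rose, with ERSE letters of either strand in capitals, again from RefSeq on GRCh38.p14.
HSPA5: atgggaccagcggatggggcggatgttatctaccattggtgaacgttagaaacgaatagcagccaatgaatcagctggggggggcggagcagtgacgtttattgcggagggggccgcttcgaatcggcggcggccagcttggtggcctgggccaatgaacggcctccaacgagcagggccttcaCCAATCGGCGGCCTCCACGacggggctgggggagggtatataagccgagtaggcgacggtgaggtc
HSP90B1: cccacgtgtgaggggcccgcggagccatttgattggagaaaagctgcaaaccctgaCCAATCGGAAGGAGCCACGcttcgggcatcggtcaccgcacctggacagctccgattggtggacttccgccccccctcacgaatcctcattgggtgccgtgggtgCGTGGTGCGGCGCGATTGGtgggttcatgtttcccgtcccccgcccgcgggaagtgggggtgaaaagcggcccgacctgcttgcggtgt
CALR: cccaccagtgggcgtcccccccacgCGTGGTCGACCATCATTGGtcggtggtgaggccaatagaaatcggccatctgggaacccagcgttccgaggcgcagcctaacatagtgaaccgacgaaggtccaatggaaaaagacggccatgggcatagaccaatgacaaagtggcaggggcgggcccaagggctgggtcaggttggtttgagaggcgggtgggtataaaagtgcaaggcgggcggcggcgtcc
CANX: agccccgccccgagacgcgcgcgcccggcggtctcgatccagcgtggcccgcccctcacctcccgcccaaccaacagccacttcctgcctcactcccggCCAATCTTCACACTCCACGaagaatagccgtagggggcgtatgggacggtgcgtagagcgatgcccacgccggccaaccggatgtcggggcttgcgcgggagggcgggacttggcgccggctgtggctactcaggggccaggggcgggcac

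The element begins 66 bases before the start in HSPA5, 194 and 89 bases in HSP90B1, 225 bases in CALR and 151 bases in CANX. CANX thus holds the letters that HSPA5, HSP90B1 and CALR hold and changed in the opposite direction. The stress factors CRELD2 (-0.78, SE 0.09) and XBP1 (-0.52, SE 0.09) fell as well, each in both siPANAD libraries.

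Among ATF4 targets, genes of amino acid supply, 12 of 25 fell and 1 rose (median -0.34). STC2, a secreted glycoprotein, was at 208 and 192 CPM in siPANAD nuclei and 626 and 632 CPM in NC nuclei (-1.65, SE 0.09, adjusted p = 2.4e-16). SLC7A5, the leucine transporter, was at 544 and 496 CPM against 1442 and 1291 CPM (-1.39, SE 0.09, adjusted p = 2.5e-14). ATF4 itself was at 392 and 420 CPM against 420 and 440 CPM (-0.08, adjusted p = 0.47), while its targets STC2 and SLC7A5 were lower in each siPANAD library than in each NC library. Of 22 heat shock chaperones 12 fell and 1 rose (0 rose without NC replicate 1, NC replicate 2 or siPANAD replicate 2), with the co-chaperone DNAJA1 at -0.90 (SE 0.10).

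Genes that growth factor signalling through MAPK turns on were mostly lower: 14 of 20 feedback genes fell and 1 rose (median -0.58). ETV4, an ETS factor, was at 20.9 and 21.9 CPM in siPANAD nuclei and 66.6 and 68.9 CPM in NC nuclei (-1.66, SE 0.11, adjusted p = 7.2e-15). SPRY2, an inhibitor of receptor kinases, was at 52.9 and 49.8 CPM against 91.4 and 123 CPM (-1.06, SE 0.11), and DUSP8, a phosphatase, at 10.5 and 10.2 CPM against 26.2 and 25.4 CPM (-1.32, SE 0.13). SPRED3 was the member that rose, at 13.7 and 14.4 CPM against 7.22 and 6.42 CPM (1.04, SE 0.15). Of 17 EGF family genes 5 fell and 2 rose, and the ligand NRG1 was at 55.5 and 49.6 CPM against 89.1 and 106 CPM (-0.89, SE 0.10). Immediate-early genes split evenly, with 4 of 26 higher and 4 lower, and 2 higher and 8 lower without siPANAD replicate 2. EGR1 was at 10.8 and 24.5 CPM in siPANAD nuclei and 12.8 and 20.3 CPM in NC nuclei, so its replicates differed more than its groups.

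TGF-beta, activin and BMP genes included some of the deepest falls, with 19 of 34 lower and 2 higher (median -0.32), and 1 higher without NC replicate 1, NC replicate 2 or siPANAD replicate 2. GREM1, a secreted BMP antagonist (chr15:32717974-32745107, plus strand), was at 7.81 and 10.1 CPM in siPANAD nuclei and 43.8 and 49.3 CPM in NC nuclei (-2.38, SE 0.13, adjusted p = 1.4e-16). INHBA, the subunit of activin A (chr7:41667168-41705834, minus strand), was at 11.7 and 10.8 CPM against 49.7 and 49.4 CPM (-2.14, SE 0.12, adjusted p = 1.9e-16). Both secreted factors were far below their NC level in every siPANAD library. Being among the largest falls, both were picked from genes without overlap between the groups.

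The receptor TGFBR1 was at 10.7 and 8.22 CPM in siPANAD nuclei and 24.6 and 23.6 CPM in NC nuclei (-1.35, SE 0.13, adjusted p = 2.9e-10). Of the pathway's targets, PMEPA1 was at 147 and 142 CPM against 329 and 327 CPM (-1.18, SE 0.09), and TGFBI, a matrix protein, at 832 and 912 CPM against 1628 and 1693 CPM (-0.93, SE 0.09). SMAD3, the signal carrier, was modestly higher, at 337 and 337 CPM against 262 and 276 CPM (0.33, SE 0.09, adjusted p = 0.0023). YAP and TEAD targets had 11 of 24 lower and 4 higher (2 higher without NC replicate 1 or siPANAD replicate 2), with IGFBP3 at 185 and 194 CPM against 321 and 385 CPM (-0.90, SE 0.10) and AMOTL2 at 162 and 183 CPM against 91.8 and 114 CPM (0.74, SE 0.11).

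Collagen chains had 11 of 24 lower and 3 higher (median -0.22), and 6 were lower with the trend on the nucleus to cytoplasm ratio removed. The count higher was 1 without NC replicate 2 or siPANAD replicate 2. COL4A1, of basement membranes (chr13:110148963-110307233, minus strand), was at 109 and 120 CPM in siPANAD nuclei and 483 and 491 CPM in NC nuclei, 4.26-fold lower (-2.09, SE 0.09, adjusted p = 4.8e-19). Its partner chain COL4A2, transcribed from the neighbouring start, was at 756 and 768 CPM against 737 and 789 CPM (0.00, adjusted p = 0.99). COL1A1, of fibrillar collagen I, was at 64.2 and 74.5 CPM against 262 and 289 CPM (-1.99, SE 0.10, adjusted p = 1.2e-17), and its partner COL1A2 at 503 and 547 CPM against 605 and 637 CPM (-0.24, SE 0.09, adjusted p = 0.032). Within each of these collagen molecules the nuclear RNA of 1 chain was far lower and that of the other was near its NC level.

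Of 17 collagen-modifying enzymes 11 fell and 0 rose (median -0.34). P4HA2, a prolyl hydroxylase, was at 50.6 and 47.3 CPM in siPANAD nuclei and 88.9 and 99.3 CPM in NC nuclei (-0.94, SE 0.10), and LOXL2, a cross-linking oxidase, at 611 and 622 CPM against 1005 and 950 CPM (-0.67, SE 0.09). Of 17 matrix proteases and their inhibitors 9 fell and 3 rose. MMP17, a membrane-bound protease, was at 2.22 and 2.84 CPM against 9.85 and 10.0 CPM (-1.97, SE 0.18), and SERPINE2, a protease inhibitor, at 126 and 123 CPM against 335 and 336 CPM (-1.43, SE 0.09).

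Of 32 laminins, integrins and other matrix genes, 15 fell and 10 rose. ITGA10, a collagen-binding integrin, was at 82.8 and 93.4 CPM in siPANAD nuclei and 18.9 and 20.5 CPM in NC nuclei (2.16, SE 0.11, adjusted p = 2.9e-17). LAMA5 was at 1452 and 1666 CPM against 736 and 744 CPM (1.07, SE 0.10), LAMB3 at 229 and 248 CPM against 121 and 131 CPM (0.92, SE 0.09), and ITGB4, a laminin receptor of hemidesmosomes, at 417 and 439 CPM against 211 and 173 CPM (1.16, SE 0.10). ITGB5, a vitronectin receptor, was lower, at 66.3 and 62.3 CPM against 161 and 162 CPM (-1.33, SE 0.09), as was THBS1, thrombospondin, at 358 and 376 CPM against 684 and 754 CPM (-0.97, SE 0.09). Integrins were called in both directions, and the laminin chain LAMA3 was not called (-0.17, adjusted p = 0.25).

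Cytokine genes split with 9 of 26 higher and 9 lower. LIF, an IL-6 family ligand, was at 728 and 787 CPM in siPANAD nuclei and 381 and 411 CPM in NC nuclei (0.94, SE 0.09, adjusted p = 2.6e-10), while the shared receptor of that family, IL6ST, was at 54.7 and 61.0 CPM against 170 and 144 CPM (-1.44, SE 0.11, adjusted p = 4.4e-11). IL11 was at 13.6 and 15.4 CPM against 31.7 and 35 CPM (-1.20, SE 0.12). TNFAIP3, a brake on NF-kappaB, was at 91.0 and 98.0 CPM against 34.9 and 45.3 CPM (1.24, SE 0.11). LIF and IL6ST were thus called in opposite directions, and IL11, another ligand of the family, in that of IL6ST.

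Of 37 interferon response genes 11 rose and 5 fell, and 2 or 3 fell when any of the 4 nuclear libraries was left out. STAT2, the factor of interferon signalling, was at 97.4 and 101 CPM in siPANAD nuclei and 45.1 and 47.5 CPM in NC nuclei (1.10, SE 0.10, adjusted p = 5.3e-11). IFIT1, a classical target, was at 6.70 and 7.37 CPM against 4.26 and 3.66 CPM (0.83, SE 0.17), and USP18 at 6.15 and 6.73 CPM against 9.50 and 10.1 CPM (-0.61, SE 0.14). IRF9 is left without a reading because 48% of its exonic bases lie in another gene.

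Apoptosis genes had 10 of 33 higher and 10 lower, with the death receptor TNFRSF10B at 392 and 441 CPM in siPANAD nuclei and 232 and 271 CPM in NC nuclei (0.73, SE 0.10).

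Hypoxia and glycolysis genes had 10 of 32 lower and 3 higher (median -0.17). VEGFA was at 91.8 and 84.0 CPM in siPANAD nuclei and 210 and 207 CPM in NC nuclei (-1.25, SE 0.09, adjusted p = 2.3e-13), and EPAS1, the HIF-2 alpha factor, at 9.18 and 9.40 CPM against 25.3 and 22.6 CPM (-1.37, SE 0.13). PFKM, a phosphofructokinase, was at 214 and 255 CPM against 106 and 109 CPM (1.12, SE 0.09). Of 27 NRF2 targets 7 rose and 9 fell (4 rose without NC replicate 1 or siPANAD replicate 1, and 3 fell without siPANAD replicate 2), and the exporter ABCC3 was at 937 and 1044 CPM against 441 and 477 CPM (1.11, SE 0.09, adjusted p = 3.8e-12). Of 31 cholesterol synthesis genes 7 rose and 6 fell, with IDI1 at 44.7 and 42.8 CPM against 77.3 and 73.2 CPM (-0.78, SE 0.10) and the desaturase FADS2 at 270 and 257 CPM against 168 and 140 CPM (0.77, SE 0.09).

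Ribosomal proteins are the stable core of translation. Of 79 cytosolic ribosomal protein genes 17 fell and 4 rose (median -0.08), but 38 fell without NC replicate 2, 7 fell and 12 rose without NC replicate 1, and 8 fell without siPANAD replicate 2. Their summed levels were 29140 and 25520 CPM in siPANAD nuclei and 32200 and 27220 CPM in NC nuclei, so the groups overlapped. With the trend on the nucleus to cytoplasm ratio removed, 0 fell and 16 rose. Nuclear-encoded respiratory chain genes had 18 of 73 lower and 4 higher, with 33 lower without NC replicate 2, 10 without NC replicate 1 and 8 without siPANAD replicate 2, and 2 higher without NC replicate 2 or siPANAD replicate 1. Of 49 MYC and ribosome biogenesis genes 19 fell and 2 rose, with 12 lower without siPANAD replicate 1 and 9 without siPANAD replicate 2. MYC was at 205 and 165 CPM against 173 and 195 CPM (0.01, adjusted p = 0.94), with overlapping libraries. Of 24 snoRNA host genes 10 rose and 2 fell (4 rose without siPANAD replicate 1 and 6 without siPANAD replicate 2, and 1 fell without NC replicate 1 or siPANAD replicate 1), and SNHG11 was at 63.7 and 76.6 CPM against 36.8 and 36.2 CPM (0.94, SE 0.10).

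The nuclear change was next set against that of the cytoplasm of the same line, in the same model. Of the 17895 genes, 7106 were called in the cytoplasm, 19.6% higher and 20.1% lower. Among the 3951 genes higher in the nucleus 1652 were also higher in the cytoplasm, which is 41.8% of the nuclear and 47% of the cytoplasmic list, 194 were lower there and 2105 were not called. Of the 4281 genes lower in the nucleus 2193 were lower in the cytoplasm (51.2% and 61.1% of the lists), 264 were higher and 1824 were not called. The difference of the effects, nuclear minus cytoplasmic, passed the test for 3614 genes (20.2%), 9.69% with the higher effect in the nucleus and 10.5% with the lower one. A difference was called for 1398 genes whose nuclear level was not called.

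**Figure D5:**
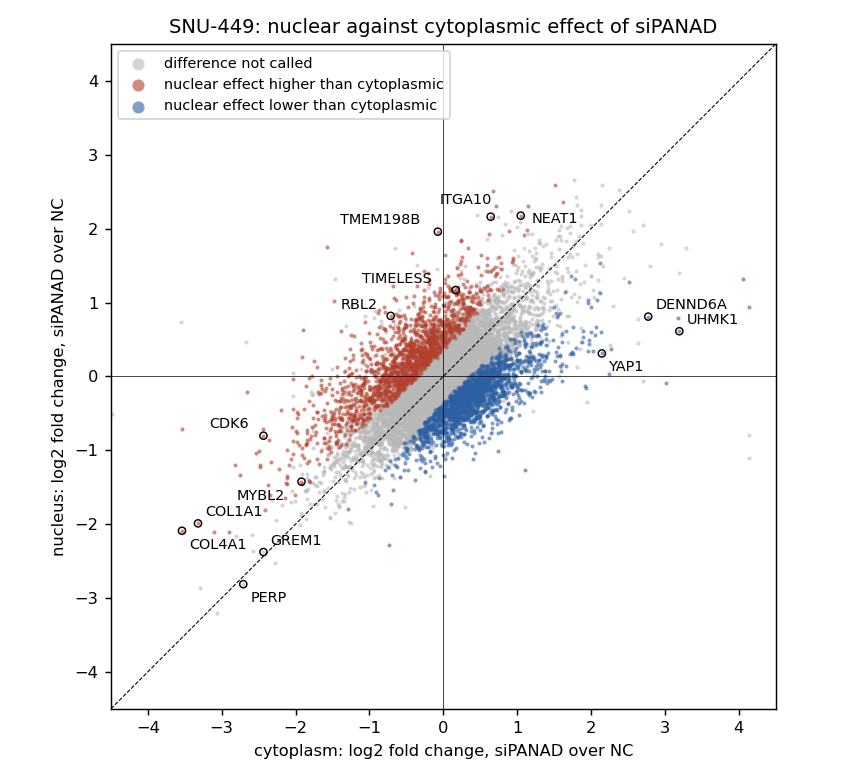
Log2 fold change of siPANAD over NC in the nucleus (vertical axis) against the cytoplasm (horizontal axis) of SNU-449 for 11496 genes, 1 point each, with 1 gene outside the axes. Red and blue points passed the test of the difference; CDK6, COL1A1 and COL4A1 lie above the diagonal and UHMK1, DENND6A and YAP1 below it, while PERP and GREM1 lie near it.

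CDK6 had the larger fall in the cytoplasm: 38.7 and 35.1 CPM in siPANAD cytoplasm against 201 and 198 CPM in NC cytoplasm (log2 fold change -2.43), beside -0.80 in the nucleus, a difference of 1.63 (adjusted p = 1.5e-10). COL4A1 (nucleus -2.09, cytoplasm -3.54, difference 1.45, adjusted p = 2.4e-09) and COL1A1 (-1.99, -3.32 and 1.33, adjusted p = 1.5e-07) had the same order. For all 3 the direction was shared and the cytoplasmic fall was the deeper.

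As lists, collagens differed between the fractions: 17 of 24 had a higher effect in the nucleus and 0 a lower one, beside 9.69% and 10.5% of all genes, with a median nuclear change of -0.22 and a median cytoplasmic change of -1.07. Of laminins, integrins and other matrix genes 13 of 32 had the higher nuclear effect and 0 the lower, and of apoptosis genes 14 of 33 and 5. TNFRSF10B was higher in the nucleus and fell by 0.60 on the log2 scale in the cytoplasm (difference 1.33, adjusted p = 1.2e-08). RBL2 was likewise higher in the nucleus and lower in the cytoplasm (-0.71, difference 1.53, adjusted p = 1.1e-05).

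Ribosomal protein genes had the reverse order, with 2 of 79 effects higher in the nucleus and 30 lower, beside 9.69% and 10.5% of all genes. In the cytoplasm 35 of 79 rose, beside 19.6% of all genes. In the nucleus 17 of 79 fell, near the 23.9% of all genes, with a median of -0.08. Respiratory chain genes had 3 of 73 higher and 31 lower nuclear effects. Among single genes, UHMK1, a kinase that phosphorylates splicing factor SF1, was at 65.6 and 58.3 CPM against 41.4 and 39.7 CPM in the nucleus (0.61) and at 163 and 206 CPM against 21.9 and 18.3 CPM in the cytoplasm (difference -2.58, adjusted p = 1.7e-12). YAP1, the transcription co-activator, was at 55.9 and 54.7 CPM against 46.0 and 43.1 CPM in the nucleus and at 82.1 and 98.6 CPM against 21.2 and 19.6 CPM in the cytoplasm (difference -1.83, adjusted p = 1.5e-10). Both genes were higher in both fractions, and by more in the cytoplasm, though the nuclear call of YAP1 (0.31, adjusted p = 0.013) was lost without NC replicate 2 (0.25, adjusted p = 0.099), siPANAD replicate 1 (0.29, adjusted p = 0.091) or siPANAD replicate 2 (0.32, adjusted p = 0.057).

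HepG2 nuclei had been treated in the same way, and 7977 of 17499 genes were called there (45.6%), 22% higher and 23.6% lower. Of 15017 genes tested in both lines, 1520 were higher in both nuclei (44.3% of the SNU-449 and 49.4% of the HepG2 genes higher) and 1726 were lower in both (46.9% and 46.2%), while 323 and 283 were called in opposite directions. The difference between the lines, SNU-449 minus HepG2, passed the test for 4279 of 20459 genes, 11.3% with the higher effect in SNU-449 and 9.61% with the lower one. PERP fell in both lines, by 2.81 in SNU-449 and by 2.64 in HepG2 on the log2 scale.

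TXNIP was higher in SNU-449 nuclei (2.32) and lower in HepG2 nuclei, where it was at 107 and 118 CPM with siPANAD and 166 and 158 CPM with NC (-0.52), a difference of 2.82 (adjusted p = 5.1e-15). EDN1, the vasoactive peptide endothelin-1, was at 162 and 156 CPM against 89.7 and 99.9 CPM in SNU-449 nuclei (0.75) and at 7.26 and 8.26 CPM against 37.2 and 31.2 CPM in HepG2 nuclei (-2.14, difference 2.87). TXNIP and EDN1 thus moved in opposite directions between SNU-449 and HepG2 nuclei.

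Gene lists parted as well. Of 49 MYC and ribosome biogenesis genes 19 fell in SNU-449 nuclei and 47 in HepG2 nuclei, and the difference was positive and called for 34, beside 11.3% of all genes. Of cholesterol synthesis genes 7 of 31 rose in SNU-449 and 26 of 30 in HepG2, with a negative difference called for 21 of 31. HMGCS1, a sterol-regulated enzyme early in the pathway, was at 33.6 and 33.5 CPM against 27.0 and 29.3 CPM in SNU-449 (0.25, adjusted p = 0.076) and had a log2 fold change of 2.42 in HepG2. Mitosis genes had 40 of 50 lower in SNU-449 and 32 of 50 lower in HepG2, and a called difference for 1 in the positive and 9 in the negative direction. Unfolded protein response genes fell in both lines (16 and 18 of 22), with a positive difference called for 9 and a negative one for 0.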

How the data were processed

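RNA-seq read counts per gene, deposited as whole numbers for each library, were used as they stand. Per the submitters' processing notes the reads were trimmed with Trim Galore 0.6.4 and aligned with HISAT2 2.2.1 to hg38; the counting program, its annotation and its use of strand are not given in the sources used here. Reads of genes that share exonic bases may therefore be split or counted for either gene. Gene coordinates and classes came from GENCODE on GRCh38 and promoter sequences from RefSeq on GRCh38.p14. Of 67938 gene entries 61398 carried a symbol, those without held 0.05532% of the SNU-449 nuclear counts, and up to 5 broken lines per table were left out.

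Genes were filtered with filterByExpr (minimum count 10), scaled with TMM and tested two-sided with the quasi-likelihood F-test of edgeR 4.0.16 (limma 3.58.1, R 4.3.3), with robust dispersion, in 1 model of the 8 SNU-449 libraries. The nuclear minus cytoplasmic difference was a contrast of the same model, and the difference from HepG2 one of a model of all 16 libraries. P-values were adjusted by Benjamini-Hochberg over all genes tested, with a threshold of 0.05. The standard error is the log2 fold change divided by the root of F. DESeq2 1.42.0 was an alternative.

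The genes named were C7orf25 with its neighbours, CDK6, NXF1, the 15 largest rises and 15 largest falls at 5 CPM or more, up to 3 called members each way per list, and the 8 largest differences each way. Rises and falls were picked among called genes with a symbol and no overlap between siPANAD and NC libraries. Differences were picked among called ones whose siPANAD minus NC values, over all pairs of libraries, did not overlap between the settings. All other genes named, the promoter examples among them, were chosen after their values were seen. The libraries, the 35 gene lists and 7 marker lists were chosen with earlier results of these data known. Alternatives were another scaling, no filter, DESeq2, the replicate number as a block, the nuclear libraries alone, each library left out, and, chosen after seeing the data, a lowess trend (span 0.3) removed and genes tested in both lines only. Intervals and floors cover counting error only. Results of some genes are not reported here.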

Additional observations from a re-analysis of the deposited data

Results flagged for a closer look

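The siPANAD effect differed between nucleus and cytoplasm of SNU-449, by edgeR's test of the difference itself, in the genes below, given as nuclear minus cytoplasmic log2 fold change. The nuclear effect was the higher one in CDK6 at 1.63, CIRBP-AS1 at 3.32, KRT7-AS at 2.83, KLC1-AS1 at 2.52, ENSG00000279382 at 2.51, ENSG00000267244 at 2.18 and STAG3L5P at 2.09. The same sign was found in TMEM198B at 2.03, CCDC43 at 2.01, DNAJC9 at 1.97, MOB3C at 1.83, ZNF542P at 1.81, ENSG00000264577 at 1.79, LRIG1 at 1.77 and MTRF1 at 1.75. A lower nuclear effect was found in HIF1A-AS3 at -3.19, ENSG00000269044 at -3.09, UHMK1 at -2.58, LINC00926 at -2.37, ENSG00000288066 at -2.21 and PI4K2B at -2.09. The nuclear effect was also the lower one in SYCP2L at -2.05, DENND6A at -1.97, TRUB1 at -1.90, YAP1 at -1.83, RBM7 at -1.69 and SREK1IP1 at -1.66. Some were named because they had at least 5 CPM in the cytoplasm too, a condition set after the values were seen. Several differences, those of KRT7-AS, KLC1-AS1, ENSG00000279382 and HIF1A-AS3 among them, rest on cytoplasmic levels at or near the floor of 3 counts in 1 group, so their size is not well set. Antisense and overlapping genes share bases with their partners, so their reads may not be their own.

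The nuclear effect also differed between the lines by the same kind of test, given as SNU-449 minus HepG2 log2 fold change. The SNU-449 effect was the higher one in TXNIP at 2.82, TMEM154 at 5.91, KLF12 at 5.52, BTNL9 at 4.34, ENSG00000276170 at 4.25 and FAM89A at 4.19. To these are added SEMA3A at 3.66, EPHB2 at 3.41, SLC43A3 at 3.40, IGFBP1 at 3.21 and PIP5KL1 at 2.99. Further positive differences were EGR1 at 2.91, EDN1 at 2.87, GPRC5A at 2.82 and MPP3 at 2.73. The SNU-449 effect was the lower one in LINC02086 at -5.60, GPR180 at -4.67, VIM at -4.66, PRICKLE1 at -4.66 and GPRIN2 at -4.60. To these negative values belong WFDC21P at -4.13, SDCBP2 at -3.85, KCNIP3 at -3.76, PDZK1IP1 at -3.42 and ETNK2 at -3.12. Further negative differences were ASB9 at -3.09, TUBA5P at -2.99, PALM at -2.71, LAMA3 at -2.68 and NTN4 at -2.61. The differences of TMEM154, KLF12, BTNL9, ENSG00000276170, FAM89A, EPHB2, LINC02086, GPR180, VIM, PRICKLE1 and GPRIN2 rest on HepG2 levels close to 0 in both groups. VIM there was at 0.081 and 0.18 CPM with siPANAD and 0 and 0 CPM with NC. SEMA3A, SLC43A3, WFDC21P, KCNIP3 and PDZK1IP1 were near 0 in HepG2 in 1 group. The size of all these differences is therefore not well set. Those with at least 5 CPM in HepG2 too were picked by a condition set after the values were seen.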

How the results depend on the processing

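The counts of genes called kept both directions under every alternative run. Beside 3951 higher and 4281 lower, DESeq2 called 2558 higher and 3231 lower, its own size factors in edgeR gave 4056 and 4223, no filter 3571 and 4588, and the nuclear libraries alone 4181 and 4291. Single libraries were then left out. These were only nuclear ones, except for the nuclear minus cytoplasmic difference, where each SNU-449 library was left out. Leaving out each library gave 2810 to 3294 higher and 3002 to 3847 lower genes. For the nuclear minus cytoplasmic difference these ranges were 1228 to 1656 and 1166 to 1994, with 1166 lower without nuclear siPANAD replicate 2 and 1239 without cytoplasmic siPANAD replicate 2. For SNU-449 minus HepG2 they were 1662 to 2120 and 1409 to 1994, and for members of the lists 114 to 139 and 284 to 400. EGR1, not called at 0.09, reversed without nuclear siPANAD replicate 2, to -0.62 (edgeR, adjusted p = 0.0288), and was at 0.56 without replicate 1; the cause was not tested. Same-numbered replicates of siPANAD and NC shared little deviation, with correlations of 0.0845 in the nucleus and -0.0107 in the cytoplasm. Between nucleus and cytoplasm these were 0.000274 with siPANAD and -0.024 with NC. Such values cannot show whether same-numbered libraries were prepared together. With the replicate block 3971 genes were higher and 4306 lower, the differences numbered 1769 and 1969 between fractions and 2296 and 1963 between lines, and list members 167 and 406. Of 264 named genes 238 were called. Of these 238, 21 lost their call in DESeq2, and 43 when a library was left out, NXF1, MRPL32, YAP1 and EDEM1 among them. Depth limits C7orf25 and other genes of few counts.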
